A study of Mus musculus with 10 samples.

Results

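Colonic cluster 1 was a group of 302 cells among 3065 kept cells of 2 colonic crypt libraries, in a series of 25204 kept cells and 10 single-cell RNA libraries. Its members were the cells that the deposited cell annotation places in the class 1_other. Few of them held a transcript of Ptprc, the gene of the pan-leukocyte antigen CD45. The normal library, colonic crypts of untreated mice, held 95 of them among 1132 kept cells, a share of 8.39% with an exact binomial 95% interval of 6.84 to 10.2. The DSS library, colonic crypts of mice given dextran sulfate sodium, held 207 among 1933, a share of 10.7% with an interval of 9.37 to 12.2. DSS is a polymer that injures the colonic epithelium when given in drinking water, and the study used it as a colitis model beside 8 libraries of small intestinal organoids that are not described here. The labels give no strain, age, sex, number of mice or day of harvest for either colonic library. With 1 library per group no test between normal and DSS was possible, and all intervals below are 95% intervals for counting error only.

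The libraries differed in more than treatment. Transcripts of Xist, the RNA that coats the inactive X chromosome of female cells, numbered 1255 UMIs in the normal cells of the cluster and 0 in the DSS cells. UMIs are the molecular barcodes that mark single captured transcripts. The Y-linked genes Eif2s3y and Ddx3y had 0 UMIs in the normal cells and 361 and 171 in the DSS cells. The other kept colonic cells showed the same pattern, with 8239 and 3 UMIs of Xist. The methods name female mice for the colitis model, whereas the DSS cells carried the Y-linked transcripts. DSS treatment and the sex of the mice therefore cannot be told apart in any value below, and the X-linked genes Cldn2, S100g and Rbm3 described below share this limit.

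Depth within the cluster was close to equal. The 95 normal cells held 2426416 UMIs with a median of 25358 UMIs and 4643 genes per cell, and the 207 DSS cells held 5518155 with medians of 25542 and 4579. The median mitochondrial share was 12.2% and 11.5%. The other colonic cells were shallower, with medians of 16502 and 12448 UMIs. Ribosomal protein genes took 14.01% of the cluster's UMIs in the normal library and 17.5% in the DSS library, and 12.9% and 16.6% of those of the other cells. Levels are given as UMIs per 1000000 UMIs of the cluster's cells in a library (CPM), with exact Poisson intervals.

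The colonic epithelium renews itself from stem cells at the crypt base, whose daughters move upward and become absorptive colonocytes or secretory cells such as goblet cells. Colonocytes take up salt, water and the short-chain fatty acids made by bacteria, oxidise these fatty acids as fuel, and secrete antibacterial proteins such as the C-type lectins Reg3b and Reg3g. Along the length of the colon the epithelium also differs in the Hox genes and transporters it uses.

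The cells of cluster 1 were epithelial. All 11 pan-epithelial markers were detected in both libraries, and their summed level was 29872 CPM in normal and 30137 CPM in DSS cells, beside 27647 and 25764 in the other colonic cells. Lgals4, a lectin of the intestinal brush border, stood at 8440 and 9358 CPM, and the keratin Krt8 at 7495 and 7286 CPM. A Ptprc UMI was found in 2 of 95 normal and 2 of 207 DSS cells, whereas 19.1% and 21.3% of the other colonic cells had one. The clusters were made from gene expression, so this difference is a description. The summed pan-leukocyte list stood at 4.12 and 5.26 CPM, beside 334 and 639 in the other cells. Fibroblast markers summed to 0 and 0.72 CPM.

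Among the lists for single epithelial types, that of colonocytes had the highest summed level. Car1, a cytosolic carbonic anhydrase of the large intestine, reached 12084 CPM (11946 to 12223) in normal and 7853 CPM (7779 to 7927) in DSS cells. Lypd8, a secreted protein that keeps flagellated bacteria from the epithelium, stood at 4412 and 4749 CPM. The summed colonocyte list was as high as in the other cells, at 25470 and 18976 CPM beside 25697 and 18596, with Car1 its largest member. Member by member the list was mixed. A member was counted only with at least 20 CPM on its higher side. In the normal library 3 of 19 genes were at least 2-fold above the other cells and 9 at least 2-fold below, and in the DSS library 1 and 7. Over all tested genes 1.6% were higher and 6.39% lower in the normal library, and 1.67% and 8.04% in the DSS library. The low members of the list included genes of surface colonocytes. The water channel Aqp8 stood at 4.12 and 5.98 CPM beside 137 in the other cells of both libraries, and Krt20 at 232 and 195 CPM beside 685 and 492. The chloride and bicarbonate exchanger Slc26a3 stood at 89.0 and 105 CPM.

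Markers of the secretory types were low, and those of stem cells in part. The stem list summed to 210 and 155 CPM against 331 and 454 in the other cells, with 1 of 12 genes at least 2-fold below them in the normal and 5 in the DSS library. Of that list Lgr5, Ascl2 and Olfm4 had 0 UMIs in both libraries. Goblet cell markers summed to 612 and 245 CPM, against 10368 and 8339 in the other colonic cells, and enteroendocrine markers to 22.3 and 25.6 CPM against 676 and 601. Tuft cell markers summed to 15.3 and 7.79 CPM against 21.97 and 64.6. The sum of the plasma cell list, 190 and 181 CPM, was mostly Sdc1, a syndecan that epithelium also makes, at 189 and 159 CPM, and the immunoglobulin light chain gene Igkc had 0 UMIs in the normal library and 11.2 CPM in the DSS library. After each cell was thinned to 10000 UMIs, 2 of 79 normal and 6 of 185 DSS cells held UMIs of at least 2 of 6 cycling markers, shares of 2.53% and 3.24%, beside 8.57% and 10.0% of the other cells. Without thinning the shares were 8.42% and 14.01%. By the markers the cluster is called colonocyte-like, with Aqp8 and Krt20 below the pooled other cells. Single clusters differed. Aqp8 was 4.06 and 4.38 CPM in cluster 2 and 22.9 and 47.3 CPM in cluster 6. Krt20 was 17.9 CPM in the normal cells of cluster 2. Because the clusters were made from these same genes, all comparisons of the cluster with other cells are descriptions.

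**Figure D1:**
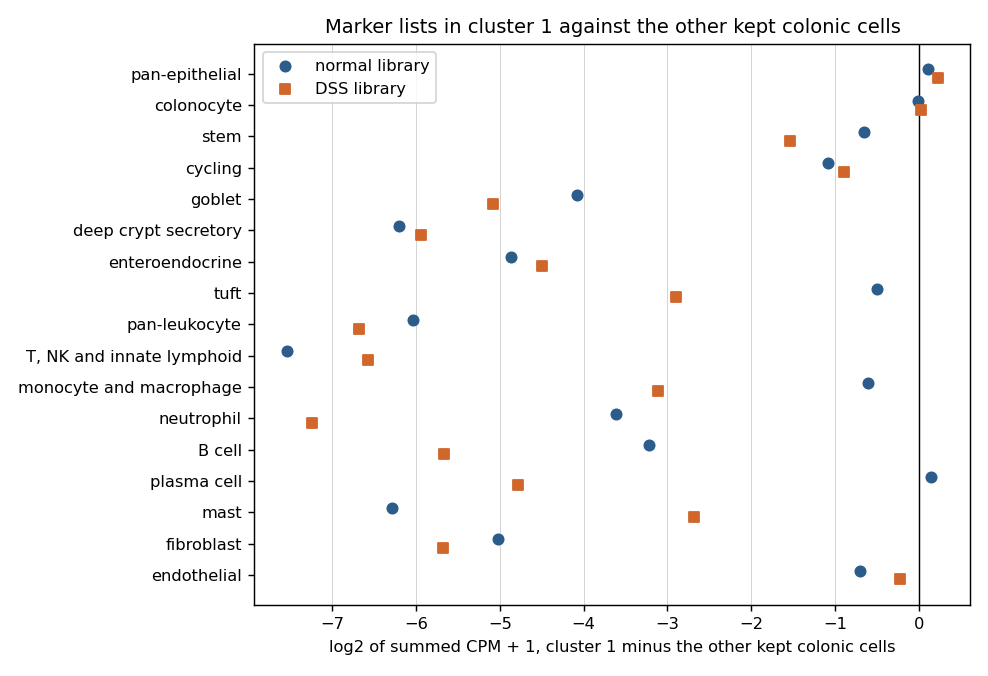
Difference in log2(summed CPM + 1) of each marker list between cluster 1 and the other kept colonic cells (horizontal), with a circle for the normal and a square for the DSS library and a line at no difference. Pan-epithelial and colonocyte lists lie near 0 in both libraries, goblet, enteroendocrine and pan-leukocyte lists lie below -4, and the plasma cell list lies near 0 in the normal library, where Sdc1 made up nearly all of it.

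Against the other colonic cells, 93 of 5819 genes (1.6%) were at least 2-fold higher in the cluster and 372 (6.39%) lower in the normal library, 465 (7.99%) in all. In the DSS library 98 of 5874 (1.67%) were higher and 8.04% lower, 570 (9.7%) in all. The genes that set the cluster most apart from the other colonic cells in both libraries had several roles. Some of the leading 25 were enzymes that modify xenobiotics, steroids or lipids, a grouping made after the genes were seen. Ugt2b5, a glucuronosyltransferase, stood at 115 CPM in both libraries beside 24.4 and 21.4 in the other cells. Ugdh, which makes the sugar donor for glucuronidation, stood at 613 and 654 CPM beside 245 and 219. The sulfotransferase Sult1d1 stood at 726 and 512 CPM beside 246 and 162. The carboxylesterase Ces1g, the sulfotransferase Sult1a1, the cytochrome P450 Cyp2c65 and the microsomal glutathione transferase Mgst1 were also among the 25 leading genes. The 25 also held Lpl and Pdk4. Lpl, a lipase that frees fatty acids from triglycerides, stood at 50.7 and 64.5 CPM beside 11.8 and 9.82, and Pdk4, a kinase that holds back glucose oxidation, at 74.2 and 53.8 CPM beside 22.8 and 14.99. The metallothioneins Mt1 and Mt2 bind zinc and copper, and Mt1 stood at 2576 and 2683 CPM beside 835 and 1142. Dmbt1, a secreted scavenger receptor of the mucosa, stood at 2997 and 4407 CPM beside 1132 and 1964. The genes lowest in the cluster against the other cells were of goblet cells and leukocytes, such as Spink4 at 22.3 and 34.8 CPM beside 2798 and 3165.

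Regional genes, chosen after their values were seen, differed between the colonic clusters. Hoxb13, a Hox gene of the most distal large intestine, stood at 3.30 CPM in normal and 3.62 CPM in DSS cells. In cluster 6 it stood at 1.35 and 3.27 CPM, and in the leukocyte cluster 0 at 3.57 and 7.61 CPM, a cell type that should lack it. In cluster 3, with 274 normal cells, Hoxb13 stood at 187 CPM, in cluster 14 with 77 normal cells at 166 CPM, and in cluster 10 with 103 DSS cells at 377 CPM. Osr2, a zinc finger transcription factor, ran the other way, at 94.0 and 98.0 CPM in cluster 1, 134 and 123 in cluster 6, and 0.556 in cluster 14. Cluster 17, with 57 DSS cells, had the same combination, with Hoxb13 at 5.31 and Osr2 at 271 CPM. Hoxb6 lay nearer cluster 2, at 22.3 and 35.2 CPM in cluster 1, 20.3 and 40.0 in cluster 2, and 8.75 and 19.6 in cluster 6. Hoxb8 lay between these clusters, at 18.6 and 19.6 CPM in cluster 1, 25.2 and 60.98 in cluster 2, and 2.69 and 11.9 in cluster 6.

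**Figure D2:**
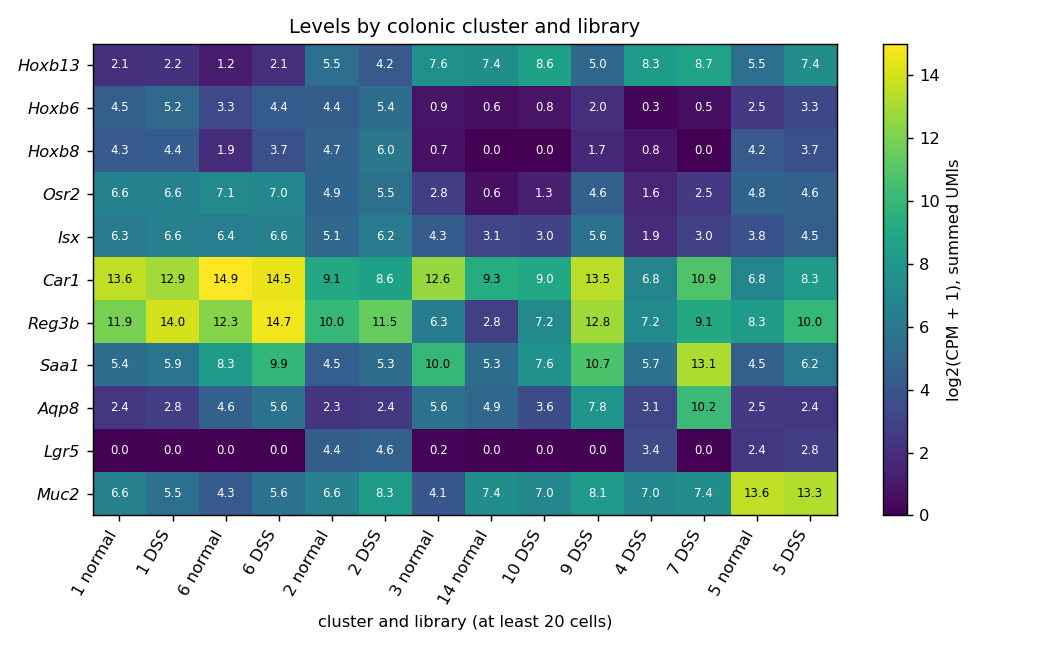
Heat map of log2(CPM + 1) of 11 regional and cell type genes (rows) in 10 colonic clusters (columns), each library with at least 20 cells shown apart and the value printed in each cell. Of the clusters drawn, 1 and 6 had the lowest Hoxb13 and the highest Osr2 in both libraries. Cluster 17 is not drawn.

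Over the 2000 genes used, the summed profile of cluster 1 was most like that of cluster 6 (221 cells), with a Pearson correlation across genes of 0.943, followed by cluster 14 (78 cells) at 0.909 and cluster 2 (270 cells) at 0.899. Genes are not independent replicates, and these values only rank the clusters. The leukocyte cluster 0 stood at 0.067 and the organoid cells annotated EC at 0.684.

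Clusters 1 and 6 differed in several genes of transport and adhesion, named after their values were seen. Tmigd1, a cell adhesion protein of the brush border, was 13.2 and 15.95 CPM in cluster 1 and 267 and 301 CPM in cluster 6. Slc9a3, the main apical sodium and proton exchanger, was 5.77 and 8.16 CPM against 76.1 and 129, and the selenium carrier Selenop 24.3 and 62.9 CPM against 183 and 513. Car1 was also lower, at 12084 and 7853 CPM against 31540 and 22813. Other genes were higher in cluster 1. It held more Cftr, the apical chloride channel, at 75.8 and 78.5 CPM against 19.5 and 10.4, more Kcnn4, a potassium channel that drives chloride secretion, at 29.7 and 22.8 CPM against 2.02 and 0.595, and more cyclin D1 (Ccnd1), at 144 and 74.8 CPM against 14.1 and 10.4. In the normal library 368 of 5560 tested genes were at least 2-fold higher and 203 lower in cluster 1 than in cluster 6. In the DSS library 280 of 5422 were higher and 236 lower. The genes highest over cluster 6 in the normal library also included the goblet genes Agr2 and Fcgbp. In cluster 1, 79.8% and 90.4% of the normal UMIs of these genes lay in 2 of 95 cells. No list was compared between these clusters.

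Cluster 2 held crypt base genes that cluster 1 lacked. Ascl2, a transcription factor of intestinal stem cells, was 0 in cluster 1 and 56.1 and 30.9 CPM in cluster 2, and Lgr5 was 0 against 20.3 and 23.9 CPM. Smoc2 was 0.412 and 1.27 CPM against 39.4 and 60.7. Cyp2c55, a cytochrome P450 of colonocytes, was 522 and 158 CPM in cluster 1 against 19.5 and 16.3. Cluster 14, next to cluster 6 in its correlation, differed in Car1, at 628 CPM, and in other genes. B3gnt7, a glycosyltransferase, was 0.824 CPM in the normal cells of cluster 1 and 145 CPM in cluster 14, whereas Slc51a, a basolateral bile acid transporter subunit, was 227 and 5.00 CPM. Reg3b was 3893 CPM in cluster 1 and 6.12 CPM in cluster 14.

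Between the normal and the DSS cells of the cluster, most genes differed by less than 2-fold. Among 5561 genes with at least 20 CPM in either library, 66 (1.19%) were at least 2-fold higher in DSS on the log2(CPM + 1) scale and 144 (2.59%) at least 2-fold lower, 210 (3.78%) in all, and a gene is called changed below only past that fold. The median over all these genes was -0.07. The split depended on the scaling, since with TMM factors 84 were higher and 117 lower, a share of 41.8% higher in place of 31.4%. In the other colonic cells 118 of 5927 genes (1.99%) were higher and 117 (1.97%) lower, 235 (3.96%) in all. Of the genes tested in both, 52 were higher in the cluster and 16 of those were higher in the other cells as well. For lower genes the counts were 123 and 28, and 0 were called in opposite directions. The other cells were a different mix of clusters in each library. Cluster 3 gave 274 normal and 1 DSS cells, and cluster 4 gave 11 and 230. The part of that mix in the ratios of the other cells was not tested, here or in the lists below. Fewer transcripts per cell and a different mix of cells within the cluster cannot be told apart in summed counts.

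**Figure D3:**
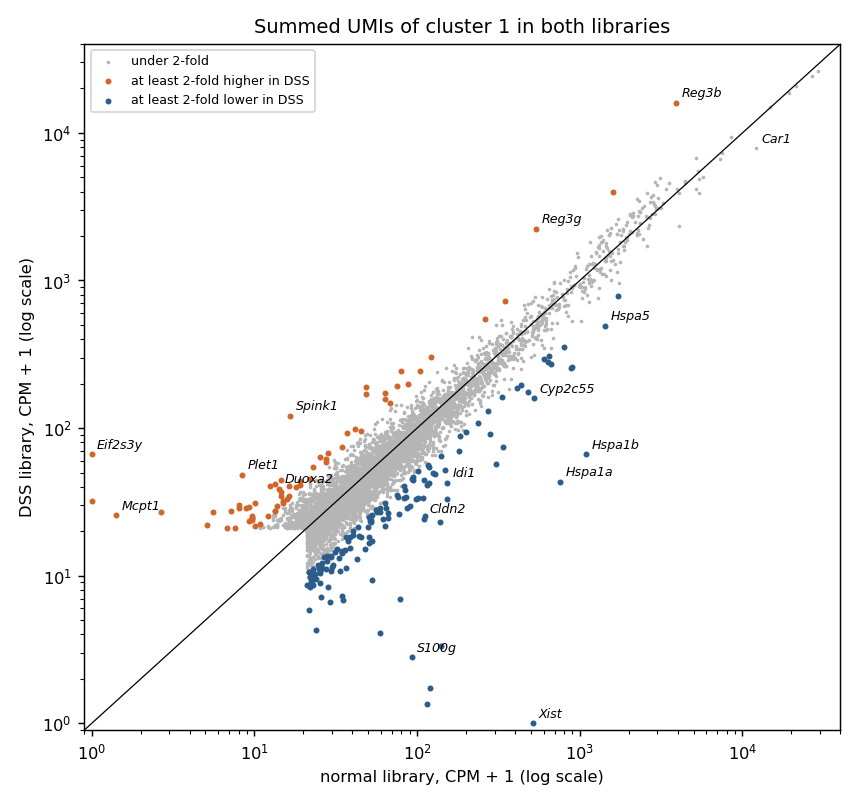
Level of each of 5561 genes in the DSS cells of cluster 1 (vertical) against the normal cells (horizontal), both as CPM + 1 on log axes, 1 library each, with a line at equal level and colours for genes at least 2-fold higher or lower in DSS. Reg3b and Reg3g lie above the line at high level, and Hspa1a, Hspa1b and S100g lie well below it.

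The antibacterial lectins Reg3b and Reg3g were among the most abundant genes to rise, and Reg3b was the highest of them. Reg3b went from 3893 CPM (3815 to 3973) to 16009 CPM (15904 to 16115), a fold of 4.11 and a log2 ratio of 2.04. Reg3g went from 541 CPM (512 to 571) to 2244 CPM (2205 to 2284), a log2 ratio of 2.05. These 2 were the members of the 7 Reg lectins that reached the minimum level, and both rose. In the other colonic cells Reg3b stood at 725 and 4828 CPM, and in cluster 6 at 4929 and 26543 CPM. Of the acute phase and oxidative defence list 7 genes were tested, 3 rose and 0 fell, where 1.19% of all tested genes rose. The median was 0.77 against 0.91 in the other cells. The risers were Duox2, an oxidase that makes hydrogen peroxide at the apical surface, from 7.83 to 27.7 CPM, its maturation factor Duoxa2 from 13.2 to 37.9 CPM, and the cytokine Il18 from 62.2 to 156 CPM. Pigr, which carries antibodies across the epithelium, was 2548 and 2713 CPM.

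The rise of Reg3b was seen in the number of cells that held it. After thinning to 10000 UMIs, 79 normal and 185 DSS cells remained, and 16 and 22 shallower cells were left out. At least 10 UMIs of Reg3b were counted in 29.1% of normal cells (19.4 to 40.4) and 89.2% of DSS cells (83.8 to 93.3). The median was 0 UMIs in normal and 94 in DSS cells, while the highest cells held 367 and 697, so that the ranges overlapped. Reg3g followed, with medians of 0 and 12 UMIs. Within a library the cells high in one were high in the other, with a Spearman correlation across cells of 0.81 in normal and 0.76 in DSS cells. Of the other genes with a mean of at least 1 thinned UMI, the closest to Reg3b were Hspa5 at 0.46 in normal and Lypd8 at 0.35 in DSS cells. Cells of 1 library are not replicates, and these correlations have no test.

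Reg3b UMIs were also counted in leukocytes. Whether they came from free RNA or from mixed droplets was not tested. In the leukocyte clusters 0 and 11, which should lack the gene, the mean was 0.115 Reg3b UMIs per cell in the normal and 1.77 in the DSS library, against 99.4 and 427 in cluster 1. Median depth was 3544 and 3704 UMIs in the leukocytes. With all cells thinned to 2000 UMIs, a Reg3b UMI was found in 30.1% of normal and 92.4% of DSS cells of cluster 1, and in 3.68% and 59.4% of leukocytes. A single Reg3b UMI in a DSS cell is therefore at the level of background in many cells, and the counts of 10 or more UMIs were used above for that reason. Car1 had at least 10 UMIs in 100% of the normal cells thinned to 10000 and 90.3% of the DSS cells. Its medians of 108 and 65 UMIs lay far above that cut, so these shares do not measure the change in its level.

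**Figure D4:**
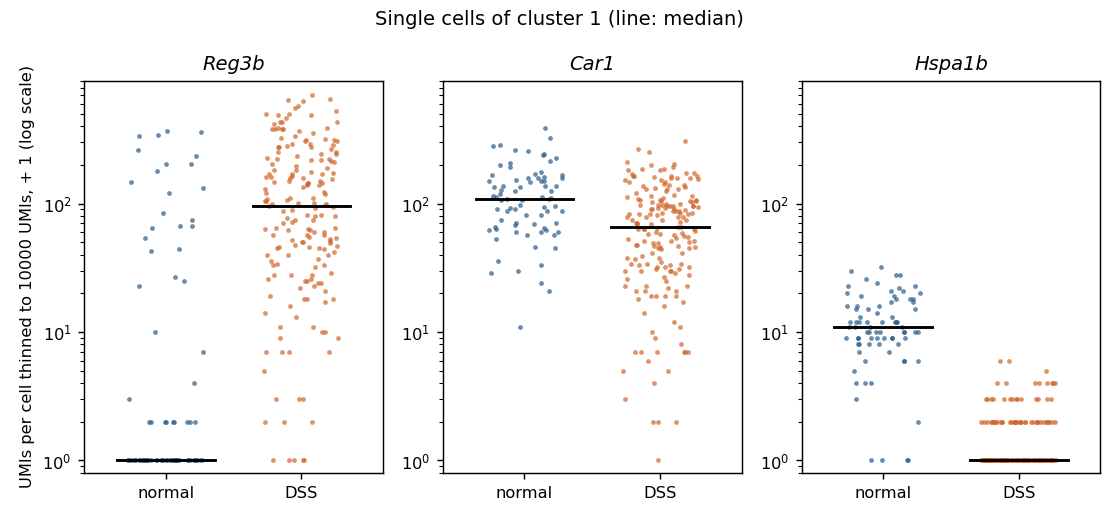
UMIs per cell of Reg3b, Car1 and Hspa1b, plotted as UMIs + 1 on a log axis, after thinning each cell of cluster 1 to 10000 UMIs, with 1 point per cell (79 normal, 185 DSS) and a line at the median. The median of Reg3b is 0 UMIs in normal and 94 in DSS cells, Hspa1b runs the other way with medians of 10 and 0, and the medians of Car1 are 108 and 65.

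Other genes rose from low levels. Spink1, a secreted trypsin inhibitor, went from 15.7 CPM (11.1 to 21.5) to 120 CPM (111 to 130), a log2 ratio of 2.86, while it stood at 248 and 227 CPM in the pooled other cells. It was 41.7 and 320 CPM in cluster 6. The mean in cluster 1 was 0.40 and 3.20 UMIs per cell, against 0.035 and 0.207 in the shallower leukocyte clusters. At a matched depth of 2000 UMIs a Spink1 UMI was found in 2.15% of normal (0.262 to 7.55) and 16.2% of DSS cells (11.4 to 22.2), and in 1.05% (0.128 to 3.75) and 10.6% (6.78 to 15.6) of leukocytes, so at that depth the intervals of the cluster and of the background overlapped. Slc40a1, the iron exporter ferroportin, rose from 47.8 to 188 CPM, and it was 101 and 339 CPM in cluster 6. The sialyltransferase St6galnac6 rose from 47.4 to 170 CPM, and Apob, which packages lipid into lipoproteins, from 1.65 to 25.9 CPM, a log2 ratio of 3.35 that was 1.31 by the mean of each cell's CPM. Plet1, a surface protein of epithelial progenitors, rose from 7.42 to 47.3 CPM, and Sprr1a, a cornified envelope protein seen in wounded gut epithelium, from 79.1 to 244 CPM. The normal level of Sprr1a lay mostly in few cells, since 2 of 95 cells held 42.7% of its UMIs. The receptor genes Erbb2 and Erbb3 rose from 27.2 to 67.1 CPM and from 35.9 to 91.7 CPM. They were 2 of 10 tested genes of the EGF receptor family and its ERK feedback, where 1.19% of all tested genes rose. The median of that list was 0.05, with 0 genes lower. Mcpt1, a mast cell protease, rose from 0.412 to 24.7 CPM, but 132 of its 136 UMIs were in 2 cells, and without the cells rich in goblet or mast cell UMIs its log2 ratio was 0.27.

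The genes that fell included the inducible heat shock proteins. Hspa1a and Hspa1b encode the inducible Hsp70, and they are near-identical copies whose reads the counting could split unevenly. Hspa1b fell from 1091 to 65.4 CPM, a log2 ratio of -4.04, and Hspa1a from 753 to 42.2 CPM. A median of 10 UMIs of Hspa1b per thinned normal cell stood against 0 in DSS cells, and 5.06% of normal and 66.5% of DSS cells had none. Of 15 heat shock chaperones and cochaperones, a list drawn up after the values were seen, 14 were tested. Of these 10 fell and 0 rose, where 2.59% of all tested genes fell. The median was -1.30, beside -0.89 in the other cells, where 5 of these genes were at least 2-fold lower. Hsp90aa1 fell from 883 to 253 CPM, Dnaja1 from 890 to 258 CPM and Hsph1 from 304 to 55.8 CPM, while the constitutive Hspa8 was 4090 and 2336 CPM. The difference was not particular to the cluster. Hspa1b was lower in DSS in 7 of 7 clusters with at least 20 cells in both libraries, leukocyte clusters included, with normal levels of 71.1 to 1091 CPM and DSS levels of 16.2 to 89.5 CPM. Rbm3, a cold-inducible RNA-binding protein named after its values were seen and X-linked, rose from 261 to 544 CPM. The dissociation stress list, which holds immediate early genes and also Hspa1a and Hspa1b, had 15 tested genes. Of them 2 fell and 0 rose, with a median of -0.03. Among its members Fos was 2018 and 2072 CPM and Jun 1532 and 1455 CPM. Whether handling of the tissue had a part in the heat shock values was not tested.

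Promoter stretches of Hspa1a, Hspa1b and Reg3b are shown for the short motifs they hold, which were picked after the values were seen. Each sequence is 60 bases of RefSeq promoter on GRCm38.p6, read 5′ to 3′ on the strand of the gene. Capitals mark the inverted repeat GAANNTTC of a heat shock element in the Hspa1 genes and TTCNNNGAA, a STAT factor site, in Reg3b. Hspa1a lies at chr17:34972227-34972286, Hspa1b at chr17:34959309-34959368 and Reg3b at chr6:78370730-78370789. In the GENCODE annotation of that build the genes span chr17:34969190-34972156, chr17:34956436-34959238 (both minus strand) and chr6:78370657-78373466 (plus strand), and Reg3g lies near Reg3b at chr6:78466269-78468872 (minus strand). For Reg3b this span begins upstream of the RefSeq start from which the motif is counted, so the motif lies inside it.
Hspa1a: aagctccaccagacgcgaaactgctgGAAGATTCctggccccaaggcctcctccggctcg
Hspa1b: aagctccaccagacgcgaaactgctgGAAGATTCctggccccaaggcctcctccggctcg
Reg3b: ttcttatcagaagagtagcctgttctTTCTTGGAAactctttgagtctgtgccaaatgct
The motif starts 104 bases before the start site in both Hspa1 genes, whose 300-base promoters share 296 bases, and 129 bases before the RefSeq start in Reg3b. Both motifs read the same on either strand. GAANNTTC is found in 2582 of 32851 promoters (7.86%) and TTCNNNGAA in 2726 (8.30%). The promoter of Reg3g, which rose by as much as Reg3b, holds GAANNTTC and no TTCNNNGAA, and both promoters of Hsph1, which fell, hold GAANNTTC. A match describes the letters and is no evidence of a bound factor.

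Chaperones of the endoplasmic reticulum were lower as well. Of 13 tested genes of the unfolded protein response 6 fell and 0 rose, where 2.59% of all tested genes fell. The median was -0.94, beside -0.13 in the other colonic cells, whose mix of clusters differed between the libraries. Hspa5, the chief chaperone of the endoplasmic reticulum, fell from 1423 to 492 CPM, and it was 994 and 389 CPM in cluster 6 and 1239 and 483 CPM in cluster 2. The secreted factor Manf fell from 479 to 176 CPM, Creld2 from 86.1 to 27.9 CPM and Hsp90b1 from 634 to 281 CPM. Calr, at 665 and 346 CPM, and the transcription factor gene Xbp1, at 179 and 110 CPM, were lower but under 2-fold. The summed list had a median of 42 UMIs per thinned normal cell and 19 per DSS cell.

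Most of the tested sterol synthesis genes fell. Cholesterol synthesis had 17 tested genes, of which 11 fell and 0 rose, again where 2.59% of all tested genes fell, with a median of -1.15 beside -0.53 in the other cells. Hmgcs1, which makes the substrate of the rate-limiting step, fell from 280 to 89.7 CPM, Idi1 from 152 to 41.7 CPM, and Sqle from 100 to 32.8 CPM. Insig1, a sterol sensor partner that is itself induced by the SREBP factors, fell from 108 to 32.6 CPM. Srebf2, the factor that drives these genes, was 108 and 71.8 CPM, and Stard4, a sterol carrier, 132 and 137 CPM. In cluster 6 Idi1 was 166 and 47.0 CPM and in cluster 2 it was 93.1 and 40.9 CPM. Per thinned cell the list had medians of 20 UMIs in normal and 9 in DSS cells.

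**Figure D5:**
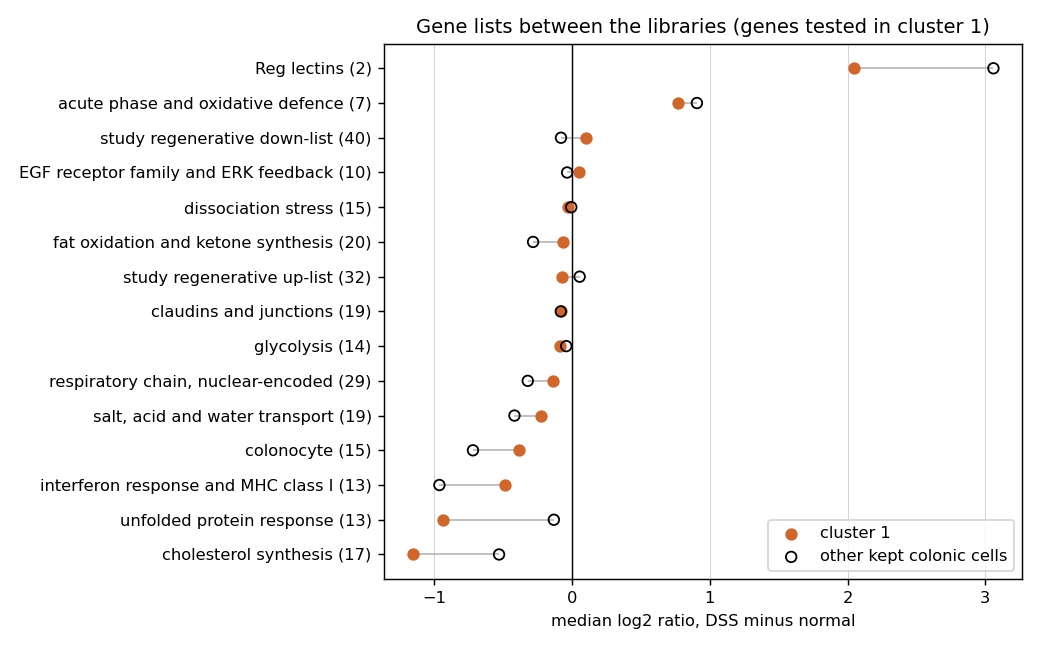
Median log2 ratio of DSS over normal (horizontal) for each gene list, with filled points for cluster 1, open points for the other kept colonic cells and the number of genes tested in cluster 1 beside each name. Cholesterol synthesis at -1.15 and the unfolded protein response at -0.94 lie lowest in cluster 1 among the lists drawn, and the Reg lectins at 2.04 highest. Not all lists are drawn, and the goblet list at -1.56 and the heat shock list at -1.30 are left out.

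Single genes of other roles also fell. S100g, the vitamin D-dependent calcium binding protein calbindin-D9k, fell from 91.5 CPM (79.9 to 104) to 1.81 CPM (0.870 to 3.33), a log2 ratio of -5.04, and its share of thinned cells with a UMI was 29.1% and 1.08%. It was 24.7 and 6.77 CPM in the other cells and 172 and 5.95 CPM in cluster 6. Cldn2, the claudin that forms cation pores in leaky epithelium, fell from 109 to 23.4 CPM, whereas it was 60.6 and 58.0 CPM in the pooled other cells. In the DSS cells of cluster 6 Cldn2 was 0.892 CPM, so the pooled level did not hold for each cluster. The other 18 tested genes of the claudins and junctions list were not called. Cyclin D2 (Ccnd2) fell from 137 to 22.1 CPM, Klk1, a kallikrein, from 336 to 73.9 CPM, and Hopx, a homeodomain cofactor, from 33.8 to 6.34 CPM. Among 15 tested colonocyte genes 2 fell and 0 rose, where 2.59% of all tested genes fell. The 2 were Cyp2c55, from 522 to 158 CPM, and the membrane carbonic anhydrase Car4, from 118 to 41.3 CPM. The median of the list was -0.38, beside -0.72 in the other cells. By the mean of each cell's CPM the log2 ratio of Car4 was -0.96 and no longer past the fold. Car1 had a log2 ratio of -0.62, under the fold. The 20 tested genes of fat oxidation and ketone synthesis had 0 calls and a median of -0.06, and the 29 of the respiratory chain 0 calls and -0.14. Of all tested genes 3.78% were called, so lists of this size would hold few calls.

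The cells varied among themselves in Car1. Its thinned median was 108 UMIs in normal and 65 in DSS cells, and the genes that followed it across cells were the iron store Fth1, with Spearman correlations of 0.66 and 0.57, Mgst3 with 0.58 and 0.49, and Phgr1 with 0.51 and 0.58. Ribosomal protein genes ran the other way, with 77 of 81 and 80 of 81 having a correlation with Car1 below 0 in the 2 libraries. For Reg3b the counts were 22 of 81 in normal and 79 of 81 in DSS cells. All genes share the fixed total of a thinned cell, and its part in these correlations was not tested.

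Several goblet genes depended on a few cells. Of 9 tested goblet markers 6 fell and 1 rose, where 2.59% of all tested genes fell and 1.19% rose. The median was -1.56, beside 0.01 in the other cells. In the normal library 3 of 95 cells held 63.3% of the list's UMIs, and in 2 cells lay 90.4% of the UMIs of Fcgbp, a mucus protein, and 84.9% of those of the trefoil factor Tff3. Without the cells rich in goblet or mast cell UMIs (92 normal and 205 DSS cells left), an alternative chosen after seeing the data, the median was 0.21, Fcgbp 0.09 and Tff3 0.18. Of the other markers that fell, Muc2 was then 0.86, Agr2 -0.62 and Clca1 -0.93, all under the fold. Creb3l1, a transcription factor of secretory cells, fell from 76.2 to 25.2 CPM with 12.97% of its normal UMIs in 2 cells. Mptx1, a pentraxin, fell from 119 to 0.725 CPM with 79.9% of its normal UMIs in 2 cells, and its log2 ratio without the same cells was -3.90.

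The immune signalling genes that were called in the lists of interferon response and chemokines were lower. Of 13 tested interferon response and MHC class I genes 2 fell, Isg15 from 33.8 to 13.8 CPM and Bst2 from 93.6 to 45.9 CPM, with a median of -0.49 beside -0.96 in the other cells, and B2m was 574 and 532 CPM. Of 5 tested epithelial chemokines 2 fell and 0 rose, with a median of -0.50 beside 0.55 in the other cells. Over all genes tested in the cluster 2.59% were lower. Ccl25, which attracts lymphocytes to the gut, fell from 21.8 to 7.61 CPM. The neutrophil-attracting chemokine Cxcl1 fell from 62.6 to 20.7 CPM, while it was 49.4 and 70.1 CPM in the other cells. Its normal level lay mostly in few cells, since 10 of 95 cells held 75.7% of its 152 UMIs. In the DSS library 10 of 207 cells held 49.1% of 114. Tnf was 25.6 and 23.6 CPM, against 17.4 and 65.0 in the other cells. The neutrophil marker list summed to 1.65 and 20.1 CPM in the cluster and to 31.4 and 3206 CPM in the other cells, so transcripts of that type were higher in the DSS library, and their part in these values was not tested.

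Of 32 tested genes of the study's regenerative up-list 6 rose and 1 fell, where 1.19% of all tested genes rose and 2.59% fell. The median was -0.07. The 6 that rose were Reg3b, Reg3g, Duox2, Duoxa2, Sprr1a and AW112010, which went from 44.1 to 94.2 CPM. The summed list went from 6780 to 20550 CPM, most of it Reg3b. Of 40 tested genes of its down-list 1 rose and 1 fell, with a median of 0.10. These counts were close to what the shares over all tested genes give. The study took both lists from published data of injured intestine rather than from these libraries. Of 9 tested fetal-like and wound epithelium genes Sprr1a rose and Ly6a (Sca-1) fell, from 410 to 186 CPM, with a median of 0.24. The 6 tested YAP target genes and the 9 tested colon identity genes had 0 calls. With 3.78% of all tested genes called, lists this short would rarely hold a call.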

How the data were processed

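Single cells of colonic crypts were captured with a Chromium 3′ kit, 1 library per condition. The authors made UMI counts per gene and cell with Cell Ranger on mm10. They deposited them as whole-number counts with a table of kept cells, libraries and cell classes. The submitters' processing notes give Cell Ranger 3.0.0 and Seurat 3.1.4, while the matrix headers give 3.1.0. The deposited count table matched the matrices with 0 entries differing, and it held 31.2% of 3627 normal and 40.7% of 4746 DSS barcodes. The stated filter of 1500 genes was not met by 7 and 13 cells of the cluster, which were kept. How doublets were treated is not given in the sources used here, and no doublet caller was run. The kept cells of the libraries shared 2 barcode sequences, 0 of them in the cluster.

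UMIs were summed per library over the cells of the cluster and over all other kept colonic cells, and divided by their total (CPM). Ratios were log2(CPM + 1). A gene was called past 2-fold if it reached 20 CPM in either library. Intervals were exact Poisson or Clopper-Pearson at 95%. Cells were thinned without replacement to 10000 UMIs, or 2000 beside leukocytes. Lists and cluster members were chosen with earlier results of these data known. Named genes were the 25 highest and 10 lowest against the other cells, the 15 largest ratios in each direction, list members by level or call, and the 8 that differed most from the other cells in each direction. Genes chosen after their values were seen are said to be so. Predicted, mitochondrial and ribosomal genes were counted but not named, 9 of 66 higher and 4 of 144 lower. Promoters came from RefSeq. The ratio calculation was tested on simulated data. Analyses used Python 3.11.15, numpy 2.4.6, scipy 1.17.1, pandas 2.3.3 and matplotlib 3.10.9, and edgeR 4.0.16 for TMM factors only.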

Additional observations from a re-analysis of the deposited data

How the results depend on the processing

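No paired analysis was possible because each condition had 1 library, and no library could be left out. Under the filter of 1500 genes the cluster's share was 10.5% in normal and 13.9% in DSS cells, and without cells with a Ptprc UMI it was 13.1% in DSS. For markers against the other cells (log2 of summed CPM), goblet was -4.83 in normal without the 5% of cells with the most UMIs. Tuft was -1.80 in DSS under the gene filter, and -3.33 in normal and -1.44 in DSS without Ptprc cells. Pan-leukocyte was -5.04 in normal under the gene filter, and -4.20 in normal and -4.64 in DSS without Ptprc cells. By the mean of each cell's CPM 103 genes were higher. At least 50 CPM left 26 higher and 78 lower (104), and no minimum gave 420 and 424 (844) and a Reg lectin median of 0.34. The goblet median was -0.45 without the cells with the most UMIs, -0.81 by the mean of cell CPM, -2.21 at 50 CPM and, reversed, 0.21 without the cells rich in goblet or mast cell UMIs, where Fcgbp was 0.091, Tff3 0.18 and Muc2 0.86. Agr2 was 0.067 without the cells with the most UMIs. Unthinned, 14.01% of DSS cells were cycling, Spink1 was found in 21.1% and 74.9% of cells, S100g in 45.3% of normal and Hspa1b in 53.1% of DSS cells. Over 10 alternatives the median of cholesterol synthesis ran from -1.27 to -1.08 and that of the unfolded protein response from -1.004 to -0.76. The causes of the moves other than the cells or genes left out were not tested. Depth limits what can be said of genes near 20 CPM.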
